A study of Caenorhabditis elegans with 6 samples.

Results

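The genes of the mitochondrial unfolded protein response studied here number 10, in whole Caenorhabditis elegans worms with and without the circular RNA of crh-1 (crh-1 encodes the worm CREB factor). They were picked as known genes of the response, and the rule that finds them uses names and no measured values: the chaperone genes hsp-6, hsp-60 and dnj-10, the protease genes clpp-1, lonp-1 and spg-7, and the regulatory genes atfs-1, ubl-5, dve-1 and haf-1. All 10 were found in the table of 46748 genes, each by 1 identifier, and all 10 passed the filter on low counts that left 14354 genes for testing. The wild-type group was strain N2 and the knockout group strain VDL786 with the allele crh-1(syb385), with 3 libraries each. The labels name a single knockout strain. Worms of both groups were synchronised by hypochlorite, fed on E. coli OP50 at 20 °C, moved as L4 larvae to 25 µM FUdR, which blocks DNA synthesis and so keeps progeny from forming, and collected as day 1 adults over a 30 µm mesh. Every library thus carries FUdR exposure, and each holds RNA of many pooled worms.

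The mitochondrial unfolded protein response is a nuclear transcription programme that answers misfolded proteins or failing import in mitochondria. In worms its centre is the bZIP factor ATFS-1, which is normally imported into mitochondria and degraded there, and which moves to the nucleus when import falters. The mRNAs of the matrix chaperones HSP-6 and HSP-60 are its usual readouts, and hsp-6 and hsp-60 reporters are the standard markers of the response in this animal. Because ATFS-1 is controlled by where the protein goes, the level of its own mRNA does not report its activity.

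The libraries differed in composition. Total counts ran from 38974777 to 47444165, and rRNA genes took 22.86% to 58.54% of them. Knockout replicate 2 stood apart, with the largest rRNA share, the fewest protein-coding counts (14188050, where the next lowest library had 24272152) and the most mRNA of the mitochondrial genome, 5.13% of protein-coding counts where no other library passed 2.22%. Markers of oocytes and germline, intestine, muscle, hypodermis and neurons had counts in all 6 libraries, and of 10 sperm markers 9 did. Values of members and lists that rest on knockout replicate 2 are also given without it. The knocked-out circle consists of exons that the linear mRNA also has. The count of crh-1, at 20.6, 18.7 and 23.9 CPM for wild-type replicates 1 to 3 and 17.9, 17.6 and 23.9 CPM for the knockout replicates, therefore does not check the genotype labels. CPM are counts scaled to a common library size.

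No member was called different between the genotypes. Of the 10 genes, 0 were called by the edgeR quasi-likelihood test at an adjusted p under 0.05, where the share of all genes called was 0%. At an unadjusted p under 0.05, 0 of the 10 passed in edgeR, against 0.982% of all genes. DESeq2 called 0 of the 10, against 0.187% of the genes it tested, and had 0 at an unadjusted p under 0.05, against 1.91% at most. The latter share sets 316 genes against the 16543 tested, and the 316 may include genes without an adjusted p. When replicate number entered as a block, edgeR again called 0 of the 10 (0.00697% of all genes), and DESeq2 called 0 (0.195%). The labels do not state a pairing by replicate number. Here and below the pairs were inferred from these same counts. In none of the 10 did the wild-type and knockout libraries separate, whereas over all genes the groups were apart in 3.28%, with the knockouts higher in 1.72% and lower in 1.56%. The median log2 fold change of the 10 genes, knockout over wild type, was -0.02, beside 0.02 over all genes tested, and 3 of the 10 lay above 0 against 52.3% of all genes (6 of the 10 with RLE scaling, another way to set the scaling factors). The intervals below say how large a difference these libraries would still allow.

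**Figure D1:**
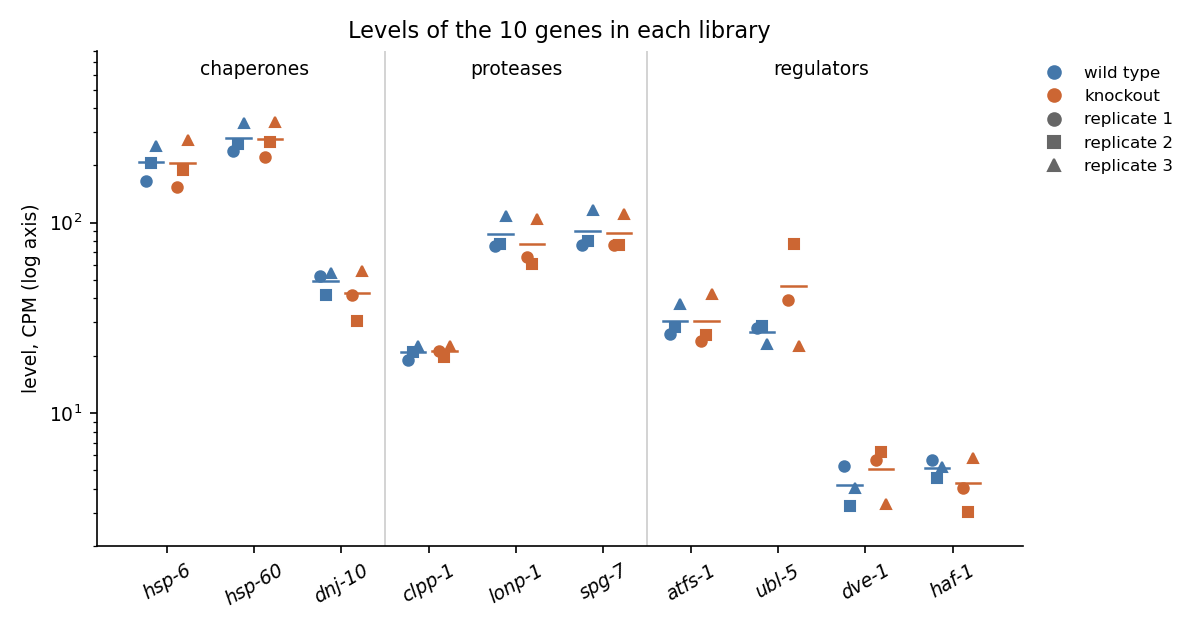
Level of each gene in CPM (y axis, log scale) for the 10 genes on the x axis, with 1 point per library and a bar at the mean of 3 libraries. Triangles, the replicate 3 libraries, lie on top in both genotypes for hsp-6, hsp-60 and atfs-1, while for ubl-5 the knockout replicate 2 library stands highest at 77.2 CPM.

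The matrix chaperones came first. hsp-6 (WBGene00002010; WBcel235 chromosome V, 4824124 to 4826760, minus strand, 4 exons) encodes the mitochondrial HSP70. Its level was 166, 206 and 254 CPM in wild-type replicates 1 to 3 and 154, 189.5 and 273 CPM in knockout replicates 1 to 3. The lowest and the highest of the 6 libraries were both knockouts, so the knockout range enclosed that of wild type. The means were 208 ± 44.3 CPM in the wild-type libraries and 205 ± 61.3 CPM in the knockouts (SD, n = 3). The fitted fold, knockout over wild type, was 0.986 with a 95% interval of 0.604 to 1.61 (edgeR adjusted p = 0.9999). As a share of protein-coding counts, which needs no scaling factor, hsp-6 took 0.0309%, 0.0374% and 0.0382% in wild type and 0.0276%, 0.0326% and 0.0415% in knockout, and again the groups overlapped.

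hsp-60 (WBGene00002025; chromosome III, 1619742 to 1625803, plus strand, 11 exons) encodes the mitochondrial chaperonin, which folds matrix proteins inside a closed chamber. It stood at 239, 258 and 336 CPM in the wild-type libraries and 221, 266 and 337 CPM in the knockouts. The libraries fell into pairs by replicate number, with replicate 3 on top in both genotypes. The fitted fold was 0.989 with a 95% interval of 0.637 to 1.54 (edgeR adjusted p = 0.9999). The ratio of hsp-6 to hsp-60 counts within a library was 0.748 ± 0.0532 in wild type and 0.739 ± 0.0615 in knockout (SD, n = 3), and ran from 0.691 to 0.81 over the 6 libraries with no separation of the groups.

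dnj-10 (WBGene00001028; chromosome III, 8631165 to 8633565, plus strand, 10 exons) encodes a mitochondrial DnaJ protein, the kind of co-chaperone that loads clients onto HSP70. Its level was 52.5, 41.8 and 54.6 CPM in the wild-type libraries and 41.5, 30.5 and 55.9 CPM in the knockouts. Knockout replicate 2 was the lowest library and knockout replicate 3 the highest. The log2 fold change was -0.22 (SE 0.29), a fold of 0.86 with a 95% interval of 0.54 to 1.37 (edgeR adjusted p = 0.996). The log2 fold change was -0.022 without knockout replicate 2 and -0.46 without knockout replicate 3. hsp-60 and dnj-10 are on the chromosome of crh-1, at distances of 10031964 and 3024202 bases.

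The proteases degrade what the chaperones cannot refold. clpp-1 (WBGene00014172; chromosome II, 10300714 to 10302842, minus strand, 9 exons) encodes the proteolytic subunit of the matrix ClpXP protease. It varied least of the 10 genes, with 19.1, 20.9 and 22.6 CPM in the wild-type libraries and 21.1, 19.8 and 22.6 CPM in the knockouts, a highest library only 1.18 times the lowest. The fold was 1.01 with a 95% interval of 0.703 to 1.46 (edgeR adjusted p = 0.9996), the narrowest interval of the 10 in this fit. A tRNA gene lies on the same strand within clpp-1, and reads that overlap both were not counted.

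lonp-1 (WBGene00016391; chromosome I, 10676922 to 10682374, minus strand, 13 exons) encodes the Lon protease of the matrix, which also degrades imported ATFS-1. Its level was 75.3, 77.7 and 109 CPM in the wild-type libraries and 66.1, 60.5 and 105 CPM in the knockouts. It was the only 1 of the 10 genes that was lower in knockout in all 3 replicate pairs, at folds of 0.877, 0.779 and 0.964, a pattern shown by 10.4% of all genes. None of the 10 genes was higher in knockout in all 3 pairs, against 11.2% of all genes. The fitted log2 fold change of lonp-1 was -0.18 (SE 0.31; edgeR adjusted p = 0.996); it was -0.025 when knockout replicate 2 was left out, 0.061 when wild-type replicate 3 was and -0.46 when knockout replicate 3 was.

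spg-7 (WBGene00004978; chromosome I, 3467132 to 3478517, plus strand, 9 exons) encodes a subunit of the m-AAA protease of the inner membrane, whose depletion is a common way to switch the response on. It had 76.1, 79.9 and 116 CPM in the wild-type libraries and 76.2, 76 and 111 CPM in the knockouts. In each replicate pair the libraries nearly coincided, with folds of 1.001, 0.951 and 0.96. The fitted fold was 0.969 with a 95% interval of 0.606 to 1.55 (edgeR adjusted p = 0.996).

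**Figure D2:**
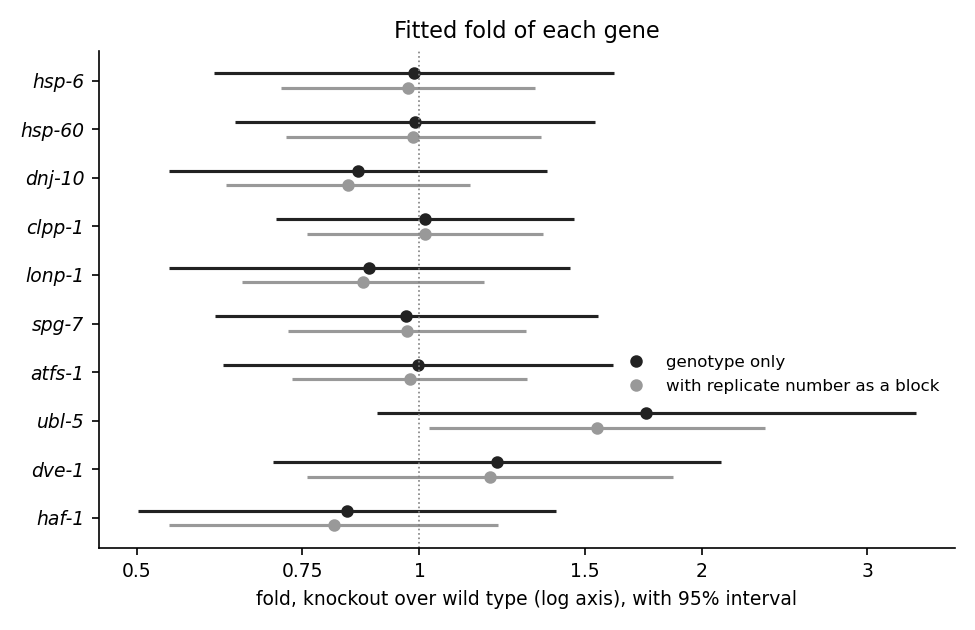
Fitted fold of each gene, knockout over wild type (x axis, log scale), with its 95% interval, for a fit on genotype alone (black) and a fit blocked by replicate number (grey). All black intervals include 1, and with the block only that of ubl-5 (1.02 to 2.33) lies above it.

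The regulators were less uniform. atfs-1 (WBGene00013878; chromosome V, 14193663 to 14197700, plus strand, 18 annotated exons over 7 transcripts) encodes the transcription factor itself. Its level was 26.2, 28.3 and 37.4 CPM in the wild-type libraries and 23.9, 25.7 and 42 CPM in the knockouts. The means were 30.6 ± 5.95 and 30.5 ± 9.97 CPM (SD, n = 3), and in both genotypes replicate 1 was the lowest and replicate 3 the highest. The fold was 0.997 with a 95% interval of 0.617 to 1.61 (edgeR adjusted p = 0.9999). haf-1 (WBGene00001811; chromosome IV, 17376427 to 17379310, plus strand, 9 exons) encodes an ABC transporter of the inner membrane that exports peptides from the matrix. It was a low gene, with 257, 217 and 224 counts in wild type and 190, 74 and 311 counts in knockout, or 5.68, 4.55 and 5.22 against 4.02, 3.03 and 5.84 CPM. Knockout libraries took both ends of the range. The log2 fold change was -0.26 (SE 0.32; edgeR adjusted p = 0.996); it was -0.064 without knockout replicate 2 and -0.53 without knockout replicate 3.

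ubl-5 and dve-1 encode partners, a ubiquitin-like protein and a homeodomain protein that act together at the promoters of chaperone genes. ubl-5 (WBGene00006726; chromosome I, 5607826 to 5608841, minus strand, 2 exons) had 27.9, 28.8 and 23 CPM in the wild-type libraries and 39.5, 77.2 and 22.5 CPM in the knockouts. Knockout replicates 1 and 2 lay above every wild-type library, whereas knockout replicate 3 was the lowest of the 6, so the groups overlapped. The log2 fold change was the largest of the 10 genes in size, at 0.80 (SE 0.42), a fold of 1.75 with a 95% interval of 0.902 to 3.38 (edgeR adjusted p = 0.996, unadjusted p = 0.0884). The value rested on knockout replicate 2: without it the log2 fold change was 0.25 (fold 1.19, 95% interval 0.679 to 2.09), and without knockout replicate 3 it was 1.15, still not called (edgeR adjusted p = 0.231). With the replicate number as a block the fold was 1.55 (95% interval 1.02 to 2.33; edgeR unadjusted p = 0.0404, adjusted p = 0.771), while 4.77% of all genes had an unadjusted p under 0.05 in that fit. In DESeq2 with the block ubl-5 was not called (DESeq2 unadjusted p = 0.025, adjusted p = 0.988). It was again the only 1 of the 10 with an unadjusted p under 0.05, against 3.85% of genes at most. That share sets 690 genes against the 17939 tested in that fit, and the 690 may include genes without an adjusted p. The replicate pairs gave folds of 1.41, 2.68 and 0.98.

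dve-1 (WBGene00022861; chromosome X, 427035 to 433812, minus strand, 26 annotated exons over 10 transcripts) was the least abundant of the 10 genes per length. It had 240, 156 and 173 counts in wild type and 268, 153 and 177 counts in knockout, or 5.3, 3.27 and 4.03 against 5.68, 6.28 and 3.32 CPM. As for ubl-5, knockout replicate 2 was the highest library and the replicate 3 pair was not higher in knockout, at a fold of 0.824. The fitted log2 fold change was 0.27 (SE 0.35; edgeR adjusted p = 0.996), 0.13 and 0.12 when knockout or wild-type replicate 2 was left out, 0.57 when wild-type replicate 1 was and 0.51 when knockout replicate 3 was.

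Levels between genes were compared per kilobase of exon, as RPKM averaged over the 6 libraries. hsp-60 was highest at 123 RPKM, followed by ubl-5 at 110.5 and hsp-6 at 84.6. The single libraries of these 3 genes overlapped, from 98.5 to 151 RPKM for hsp-60, 68.1 to 234 for ubl-5 and 62.8 to 112 for hsp-6. Next stood spg-7 at 37.6, dnj-10 at 27.3, lonp-1 at 26.9 and clpp-1 at 24.9 RPKM. The lowest hsp-6 library, at 62.8 RPKM, was above the highest spg-7 library, at 48.9, while each of spg-7, dnj-10, lonp-1 and clpp-1 overlapped its neighbour in this order. atfs-1 followed at 16.1 RPKM, with all its libraries below those of clpp-1. haf-1 at 2.23 and dve-1 at 1.96 RPKM came last and overlapped each other. Among all genes tested, hsp-60 stood above 95.6% of them per length, hsp-6 above 93.2%, atfs-1 above 65.1% and dve-1 above 30.7%.

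In most members the replicate 3 libraries were on top, while replicates 1 and 2 kept no common order. In 7 of the 10 genes (hsp-6, hsp-60, dnj-10, clpp-1, lonp-1, spg-7 and atfs-1) the replicate 3 libraries of both genotypes were the highest pair of the 6, an order seen in 29.4% of all genes. For ubl-5 the same libraries were the lowest pair, as in 20.4% of all genes. On a log2 scale, as distance from a gene's own mean over the 6 libraries, hsp-6 stood at -0.29, 0.02 and 0.33 in wild type and -0.40, -0.09 and 0.43 in knockout. The 16 oocyte and germline markers followed a like order in most libraries, with a mean level of -0.28, 0.21 and 0.75 in wild type and -0.72, -0.77 and 0.81 in knockout. All 16 had a log2 fold change below 0, with a median of -0.30 and 0 called in edgeR. That direction turned on single libraries: the median was 0.08 with 14 of 16 above 0 when wild-type replicate 3 was left out, -0.049 and -0.047 when knockout replicate 1 or 2 was, and -0.97 when knockout replicate 3 was. Their summed level ran from 1845 to 6109 CPM, and their part in the members' values was not tested. Other marker lists also leaned to 1 side. Above 0 were 0 of 7 sperm, 9 of 10 intestine, 9 of 9 muscle and 6 of 6 neuron markers. Hypodermis markers were above 0 in 2 of 5. Without knockout replicate 2 the muscle count was 5 of 9 and the neuron count 4 of 6. Without scaling factors these counts were 1 of 9 and 1 of 6. The intestine count was 6 of 10 without scaling factors. It was 6 of 10 when wild-type replicate 2 was left out and 10 of 10 when wild-type replicate 1 was. Hypodermis markers were above 0 in 5 of the 6 then tested when wild-type replicate 1 was left out. In RNA of whole worms, fewer cells of a type and less RNA per cell cannot be told apart.

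**Figure D3:**
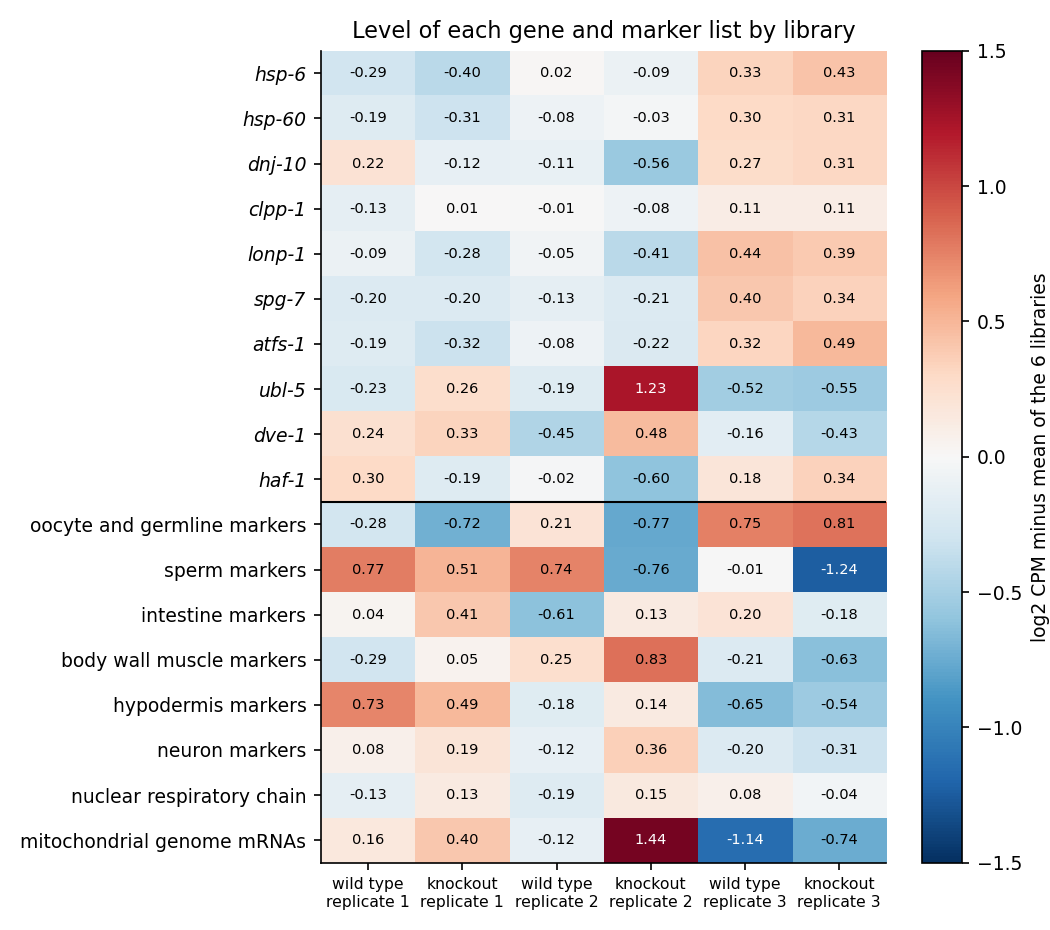
Level in each library (columns, ordered in replicate pairs) as log2 CPM minus the mean of the 6 libraries, for the 10 genes (above the line) and as the mean over the genes of each marker list (below it). The replicate 3 libraries are high for hsp-6, hsp-60 and the oocyte and germline markers and low for ubl-5 and the mRNAs of the mitochondrial genome, which reach 1.44 in knockout replicate 2.

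The genes whose profile over the 6 libraries was closest to that of hsp-6 were frm-4, F42A10.5, F07F6.4, ztf-7 and erd-2.2. Likeness was the root mean square difference of the centred log2 CPM profiles, taken over the 6782 genes with at least 10 CPM on average, and it was 0.031 for frm-4 and 0.038 for erd-2.2. By the same measure atfs-1 ranked 140 of 6782 with a difference of 0.086 and hsp-60 ranked 175 with 0.091. spg-7 ranked 479, lonp-1 983, clpp-1 2146 and dnj-10 3365. haf-1 and dve-1 were under 10 CPM on average and were not ranked. ubl-5 ranked 6500 with a difference of 0.807, near the far end. The profile of hsp-6 was therefore shared with many genes that are not members.

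Gene length moved with the same libraries. Of 3266 nuclear protein-coding genes with 2000 or more exon bases, the median level relative to each gene's mean was 0.28 in wild-type replicate 3 and 0.33 in knockout replicate 3, and -0.12, 0.05, -0.29 and -0.20 in wild-type replicates 1 and 2 and knockout replicates 1 and 2. Among the 999 genes under 500 exon bases the order turned, with -0.26 and -0.40 in the replicate 3 libraries and 0.26 and 0.32 in knockout replicates 1 and 2. Of the 7 members with the replicate 3 libraries on top, hsp-6 has 2446 counted exon bases, hsp-60 2240, spg-7 2373 and lonp-1 3060. dnj-10 with 1687 and atfs-1 with 1903 belong to a class with medians of only 0.06 and -0.01 in those libraries, and clpp-1 with 843 to a class at -0.12 and -0.22, against its own 0.11 in each. ubl-5, with 330, is the shortest of the 10 genes and the only 1 of them under 500. Its libraries stood at -0.23, -0.19, -0.52, 0.26, 1.23 and -0.55 (wild-type replicates 1 to 3, then knockout). The short genes stood at 0.02, 0.03, -0.26, 0.26, 0.32 and -0.40. Both were low in the replicate 3 libraries and high in knockout replicates 1 and 2. In wild-type replicates 1 and 2 ubl-5 was below its mean, while the short genes were near theirs. In knockout replicate 2 ubl-5, at 1.23, was well above the short genes at 0.32. Of the 999 short genes, 698 had a log2 fold change above 0, with a median of 0.23, against 1292 of 3266 long genes and a median of -0.08. dve-1, with 2370 exon bases, went against the order of the long genes. haf-1, with 2115, stood at 0.30, -0.02 and 0.18 in wild type and -0.19, -0.60 and 0.34 in knockout. It followed the long genes only in part, as its wild-type replicate 1 was above its mean where theirs was at -0.12. The part of length in these values was not tested.

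**Figure D4:**
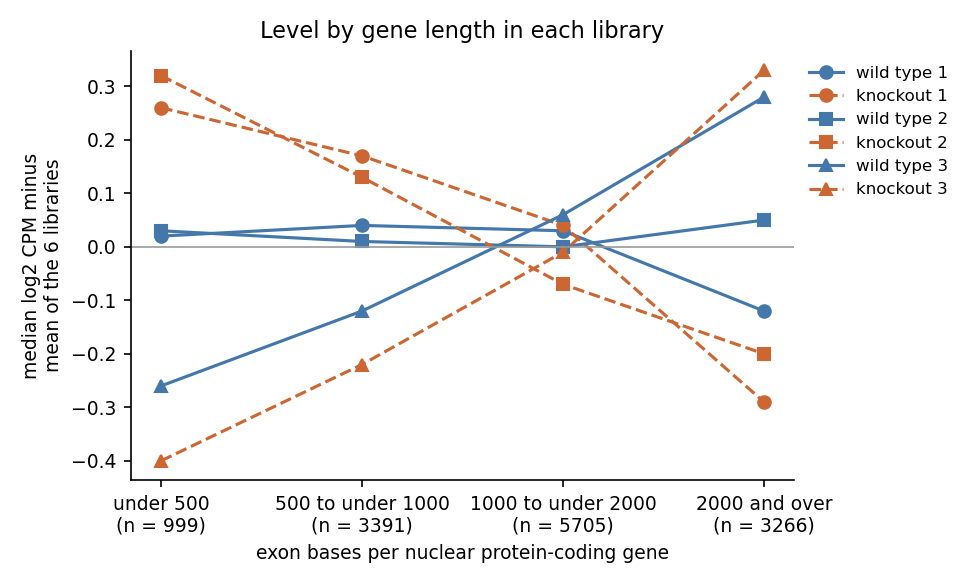
Median level of nuclear protein-coding genes in each library relative to each gene's mean over the 6 libraries (y axis, log2 CPM), in 4 classes of exon length (x axis, with the number of genes). Replicate 3 libraries (triangles) climb from -0.26 and -0.40 to 0.28 and 0.33, while knockout replicates 1 and 2 fall from 0.26 and 0.32 to -0.29 and -0.20.

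The mitochondrial genome itself varied more between libraries than the chaperone genes. The summed level of its 12 mRNAs was 10410, 9955 and 3915 CPM in the wild-type libraries and 12380, 29860 and 6101 CPM in the knockouts, a range of 7.63 times between libraries, whereas hsp-6 ranged over 1.78 times and hsp-60 over 1.53 times. Knockout replicate 2, with the most mitochondrial mRNA, ranked 4 of 6 for hsp-6 and 3 of 6 for hsp-60. Wild-type replicate 3, with the least, ranked 2 of 6 for both. ATP6, a subunit of ATP synthase, had the smallest p of the 12 genes at 330, 236 and 48.2 CPM in the wild-type libraries and 421, 1549 and 199.9 CPM in the knockouts (edgeR adjusted p = 0.996), and ND1 of complex I had 480, 458 and 301 against 626, 1411 and 333 CPM. Both genes overlapped between the groups. The median log2 fold change of the 12 mRNAs was 0.90 and fell to 0.20 without knockout replicate 2.

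Other genes of the pathway were taken from lists. In edgeR 0 of their members were called, against 0% of all genes, and 0 had an unadjusted p under 0.05, against 0.982%. The groups were apart in 1 of 20 import and folding genes, with the knockouts higher. Of 69 mitochondrial ribosomal protein genes, 1 was apart with the knockouts higher and 1 with them lower. Over all genes the shares were 1.72% higher and 1.56% lower. Of 16 further regulators of the response, such as the chromatin factors lin-65 and met-2 and the kinase gene dlk-1, 6 had a log2 fold change above 0, with a median of -0.12, beside 52.3% of all genes and a median of 0.02. The smallest p in this list belonged to dlk-1 at 0.33 (SE 0.31) and to zip-3, a bZIP repressor of ATFS-1, at 0.31 (SE 0.32). Import and folding factors were above 0 in 12 of 20, with a median of 0.06. There tin-13, a small chaperone of the intermembrane space, stood at 0.45 (SE 0.33) and tin-44 at -0.27 (SE 0.26). Of 8 other proteases, prohibitins and membrane scaffolds, 3 were above 0, with a median of -0.02. The inner membrane peptidase genes immp-1 and immp-2 stood at 0.21 (SE 0.29) and 0.14 (SE 0.25). Fission, fusion and mitophagy genes were above 0 in 4 of 13, with a median of -0.13, and included the autophagy receptor gene sqst-1 at 0.36 (SE 0.27) and mff-2 at -0.25 (SE 0.24). Mitochondrial ribosomal protein genes were above 0 in 31 of 69, with a median of -0.02, and mrps-33 stood at 0.69 (SE 0.36) and mrps-18A at 0.45 (SE 0.31). The signs of these medians depended on the scaling: without scaling factors all 5 were below 0, from -0.28 to -0.16, beside -0.21 for all genes, and with RLE scaling those of the 8 proteases and scaffolds and of the ribosomal proteins were 0.0052 and 0.0018. They depended on single libraries as well. Without wild-type replicate 3 the medians were 0.13 for the regulators (13 of 16 above 0), 0.18 for import and folding, 0.24 for proteases and scaffolds, 0.055 for fission, fusion and mitophagy (10 of the 14 then tested) and 0.13 for ribosomal proteins (45 of 69). Leaving out knockout replicate 2 gave 0.0071, 0.073, 0.12, 0.027 and 0.033 in the same order, and leaving out knockout replicate 3 gave -0.38, 0.059, -0.14, -0.47 and -0.14.

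The respiratory chain list and the ATFS-1 list had most of their genes above 0. Of 35 nuclear genes of the respiratory chain 32 were above 0, with a median of 0.18. Over all genes tested 52.3% were above 0, with a median of 0.02. In cox-7C, a subunit of complex IV, the groups were apart, with 119.5, 116 and 139 CPM in the wild-type libraries and 175.5, 188 and 142 CPM in the knockouts (edgeR adjusted p = 0.996), as in 1.72% of all genes in this direction. gas-1, a subunit of complex I with the next smallest p, stood at 0.41 (SE 0.30), and its groups overlapped. On library totals alone that list's median turned to -0.06, with 11 of 35 above 0, where the median of all genes was -0.21, and with 1 library left out it ran from 0.14 to 0.35. Genes described as dependent on ATFS-1 under mitochondrial stress were above 0 in 8 of the 9 tested, with a median of 0.37, and C07G1.7 had no counts in any library. The median was 0.10 without scaling factors, 0.12 when wild-type replicate 2 was left out and 0.10 when knockout replicate 1 was, each with 6 of 9 above 0, and 0.59 when wild-type replicate 1 was. Of the 8, the lysozyme gene lys-2 was at 0.0002. The glycolytic genes gpd-2 and gpd-3 were in this list, with gpd-2 at 190, 135 and 153 CPM in the wild-type libraries and 264, 262 and 108 CPM in the knockouts. cdr-2 stood at 0.40 (SE 0.28) and the antibacterial peptide gene abf-2 at 0.97 (SE 0.67), the latter on 8 to 45 counts per library. None of the 9 separated the groups, where 3.28% of all genes did in 1 direction or the other. The list's mean level was 0.16, -0.61 and 0.09 in wild type and 0.66, -0.09 and -0.21 in knockout, and that of 10 intestine markers was 0.04, -0.61 and 0.20 and 0.41, 0.13 and -0.18. By these means wild-type replicate 2 was lowest and knockout replicate 1 highest in both lists. Summed CPM did not show the same match. The intestine sum was lowest in wild-type replicate 2 (11390) but highest in wild-type replicate 3 (18780), with knockout replicate 1 at 17260. The sum of the ATFS-1 list was highest in knockout replicate 1 (985) and lowest in knockout replicate 3 (453). The part of intestinal RNA was not tested.

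**Figure D5:**
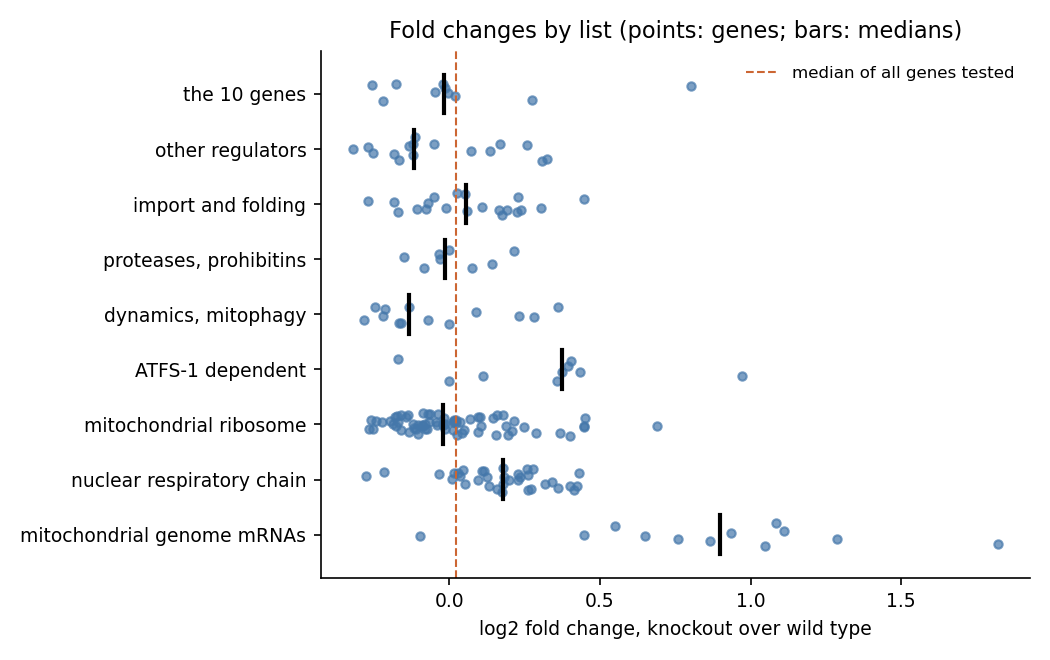
Log2 fold change, knockout over wild type (x axis), of each tested gene (points) in the 10 members and 8 lists, with list medians as black bars and the median of all genes tested, 0.02, as a dashed line. The members centre on -0.02 with ubl-5 apart at 0.80, and the mRNAs of the mitochondrial genome have a median of 0.90, which was 0.20 without knockout replicate 2.

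HSP70 genes of other compartments set hsp-6 in its family, with 2 of 5 above 0 and a median of -0.01. That median was 0.01 with RLE scaling and -0.24 without scaling factors. With 1 library left out it ran from -0.33 (knockout replicate 3) to 0.21 (wild-type replicate 3), and was 0.03 without knockout replicate 2. hsp-1, the cytosolic HSP70, had 1064, 1510 and 1883 CPM in the wild-type libraries and 1016, 1253 and 2025 CPM in the knockouts, in the same order of replicates within each genotype as hsp-6. hsp-3, a chaperone of the endoplasmic reticulum, had 318, 289.6 and 363 CPM in the wild-type libraries and 374, 371 and 370.5 CPM in the knockouts. Its groups were thus apart, as in 1.72% of all genes in this direction. The fold was only 1.15 (95% interval 0.789 to 1.68, edgeR adjusted p = 0.996). The cytosolic co-chaperone gene hsp-110 stood at -0.15 (SE 0.39). hsp-70, chosen after its values were seen, is a heat-inducible gene and was high in both replicate 2 libraries, at 8.78 CPM (wild type) and 10.4 CPM (knockout), against 0.263 to 0.762 CPM in the other 4. hsp-6 and hsp-60 showed no such step in the replicate 2 pair.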

How the data were processed

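The deposited table holds raw counts of read pairs per gene, made by the authors with featureCounts 1.5.0 (exons, reverse strand, WBcel235 genes), per the file headers. The submitters' processing notes name HISAT2 2.1.0, bcl2fastq 2.19 and DESeq2 1.26.0. Reads from stranded libraries that lost rRNA by depletion were counted per gene, and antisense genes overlapping spg-7, clpp-1 and haf-1 are thereby kept apart. Names and positions came from Ensembl release 115, and mitochondrial gene names from RefSeq, of the same build.

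Counts were filtered with filterByExpr (minimum count 10, minimum total 15), scaled by TMM and tested with the edgeR 4.0.16 quasi-likelihood F test (robust, edgeR 4 method) in R 4.3.3 on all 14354 genes, with Benjamini-Hochberg adjustment. A gene was called at an adjusted p under 0.05. Standard errors equal the absolute log2 fold change divided by the root of F. RPKM divides CPM by the exon bases of the count table, and log2 CPM used a prior count of 2. No library is a copy of another (chi-square over degrees of freedom at least 87.25), and the labels call the replicates independent.

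Same-numbered libraries correlated in their deviations from the group means with 0.65, 0.48 and 0.58, each above 0.1. Libraries of unlike number gave -0.53 to 0.02. From these same counts, same-numbered libraries were treated as pairs, an assumption the labels do not state. Alternatives were RLE and no scaling factors, no filter, 1 CPM in 3 libraries, DESeq2 1.42.0, protein-coding genes only, the replicate block, and each library left out. Named besides the members are crh-1, the 2 genes of smallest p in each list, and the 5 genes most like hsp-6. Outside that rule, lin-65, met-2, gpd-2, gpd-3, lys-2, C07G1.7, hsp-1 and hsp-70 were named after their values were seen. Members, lists and tests were chosen with earlier results of these data known.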

Additional observations from a re-analysis of the deposited data

How the results depend on the processing

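Of 140 refitted log2 fold changes of the 10 genes, 25 changed the sign of the reported value and the others kept it, and in no setting was a member called (smallest adjusted p = 0.231). With RLE scaling the log2 fold change became 0.0059 for hsp-6, 0.0083 for hsp-60 and 0.022 for atfs-1, without a filter 0.0028, 0.0035 and 0.019 for the same genes, and in DESeq2 5.3e-06 for hsp-60 and 0.017 for atfs-1. With no scaling factors, which moved the median over all genes from 0.02 to -0.21, clpp-1 stood at -0.20, dve-1 at -0.022 and the members' median at -0.23. Over protein-coding genes only, clpp-1 stood at -0.016. With 1 library left out, values ran from -0.27 to 0.20 for hsp-6, -0.18 to 0.19 for hsp-60, -0.021 to 0.13 for clpp-1, -0.46 to 0.061 for lonp-1, -0.25 to 0.22 for spg-7 and -0.30 to 0.21 for atfs-1. The members' median was -0.26 when knockout replicate 3 was left out and 0.19 when wild-type replicate 3 was, and the latter had 8 of 10 genes above 0 against 3 of 10. The cause was not tested. Genes called over the whole table numbered 0 in edgeR, 5 with no scaling factors, 1 with the replicate block, 31 in DESeq2 and 35 in DESeq2 with the block, and 0 without any 1 library in edgeR. The block changed no call of a member. Counts of 74 to 311 limit haf-1 and 153 to 268 limit dve-1.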
